A study of Mus musculus with 91 samples.

Results

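Germ cells of the fetal XY gonad were compared between E13.5, when they enter mitotic arrest, and E12.5, a day earlier. Both groups were EGFP-positive cells of embryos carrying the Oct4-EGFP transgene (a Pou5f1 reporter), sorted from pooled gonads of CD-1 by C57BL/6J progeny, with 3 arrays at E13.5 and 3 at E12.5. The members were chosen by signal alone: every transcript cluster of the Affymetrix Mouse Gene 1.0 ST array that names 1 gene and reached a log2 signal of 6 in 2 of 3 arrays at either stage. This gave 15198 clusters of 13847 genes, out of 16820 such clusters of 15324 genes that reached the limit anywhere in the series and out of 35557 clusters in the table. XX germ cells of the same transgenic line at E13.5 and E12.5, again 3 arrays each, served for the comparison between the sexes, and the XY supporting, interstitial and endothelial cells of the same stages for the check of purity. The sources name no allele other than the reporters, and each RNA came from a pool of 1 or more litters. The sources differ on whether the mesonephros was still attached in these sorts. The Oct4 promoter marks germ cells as a class and does not separate cells in arrest from cells still in cycle, and a fall in signal cannot be told apart from a smaller share of cells that express the gene. Nothing states that the 3 pools of a group came from different sorting days, so p-values measure a spread between arrays. That spread was pooled over the 24 groups fitted together, somatic cells included. The SE and p-value of a gene can therefore be smaller or larger than its scatter in these germ cell arrays would give. Nxf2, for example, had an SD of 1.03 over the E13.5 arrays and an SE of 0.19 for its difference.

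In the mouse, primordial germ cells reach the gonad while still dividing and expressing a pluripotency network. Those in a testis then stop in G1, under the D-type cyclin and retinoblastoma pathway, and take on the prospermatogonial fate, for which the RNA-binding protein NANOS2 is needed, whereas those in an ovary enter meiosis. In the arrested XY cells the piRNA machinery is assembled, which later guides DNA methylation to transposons. Cell cycle genes are known to be held down in resting cells through pocket proteins bound with E2F factors at E2F sites, and with the DREAM and MuvB complexes at CHR elements.

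The promoters of cell cycle genes that fell are shown first, because E2F-type sites were more frequent in the replication list, and CHR elements in the mitosis list, than among all promoters. Each stretch below is 30 bases of mouse genome GRCm38.p6 from RefSeq promoters, 5′ to 3′ on the strand of the gene, with the motif in capitals. The motifs searched were TTTGGCGC and TTTCCCGC for the E2F-type site and TTTGAA for the CHR element, each on both strands.
Cdc6, chr11:98908002-98908031, plus strand: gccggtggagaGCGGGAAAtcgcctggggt
Mcm3, chr1:20820275-20820304, minus strand: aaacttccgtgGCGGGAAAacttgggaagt
Pole2, chr12:69228162-69228191, minus strand: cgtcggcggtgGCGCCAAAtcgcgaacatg
Rfc3, chr5:151651190-151651219, minus strand: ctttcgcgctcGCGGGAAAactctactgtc
Mki67, chr7:135716460-135716489, minus strand: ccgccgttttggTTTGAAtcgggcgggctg
Cenpa, chr5:30666890-30666919, plus strand: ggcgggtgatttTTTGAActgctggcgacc
An E2F-type site was found in 12 of the 36 replication genes that had a promoter in the RefSeq table (33.3%), against 3.33% of the members' genes and 1.8% of all 27025 genes in that table, whose windows run from 250 bases before to 50 bases after the start. A CHR element was found in 23 of 35 mitosis genes (65.7%), against 1540 of the 10978 members' genes with a promoter and 20.2% of all genes. No mitosis promoter of the 35 had an E2F-type site, and 13.9% of the replication promoters had a CHR element. A CCAAT box (CCAAT) stood in 63.9% of the replication promoters and 71.4% of the mitosis promoters, against 41.1% of all. Of the replication genes that fell, 4 of the 12 with a promoter had an E2F-type site (33.3%), the same share as in the whole list. Of the mitosis genes that fell, 2 of the 3 with a promoter had a CHR element. The motifs thus mark the lists and do not set apart the genes that fell within them. Among all the genes that fell, 6.43% had an E2F-type site and 17.4% a CHR element, and among those that rose 3.74% and 17.7%. The differences between these shares were not tested. A match is a description of the window and not a bound site.

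The sorted cells carried the germ cell markers. All 12 germ cell markers had a mean signal of 6 or more at both stages, with a mean over the list of 9.94 to 10.02 in the E13.5 arrays and 9.32 to 9.67 in the E12.5 arrays. Of the list Nanos2, Cdkn1b, Mael and Nanos3 rose and Tfap2c fell. Ddx4, the germ cell RNA helicase, averaged 11.55 at E13.5, against 11.53 at E12.5, and Dazl averaged 10.77, against 10.83. The 15 Sertoli markers averaged 6.97 to 7.14 at E13.5 and 6.95 to 7.08 at E12.5, against 9.79 in sorted E13.5 XY supporting cells. These means hide Cst9, which averaged 7.75 and 7.38, against 4.703 and 4.754 in XX germ cells and 5.38 in E11.5 XY germ cells. Of the 15 markers Inhbb, Nr5a1 and Sox8 alone had lower means in XY than in XX germ cells at E13.5. All the others had higher means in XY cells, such as Sox9 (7.73, against 7.46) and Mro (6.48, against 6.15). The part of Sertoli cell RNA in the Cst9 signal and in these differences was not tested. The 11 interstitial markers averaged 6.84 to 6.97 and 6.75 to 6.77, against 9.96 in interstitial cells. The 12 endothelial markers averaged 6.09 to 6.18 and 6.18 to 6.28, against 9.49 in endothelial cells. The 6 Leydig markers averaged 5.57 to 5.69 and 5.41 to 5.56, against 9.07 in interstitial cells, with Cyp11a1 at 5.31 and 5.12. Hsd17b3 of this list read 6.35 to 6.79 in the E13.5 arrays, against a mean of 5.24 in E13.5 XX germ cells. The source of this difference was not tested. No Sertoli, Leydig, endothelial, macrophage or red blood cell marker was called in the main fit. The spread of that fit includes the somatic arrays, where such markers can vary, so the lack of calls says little on purity. Ptch1 of the interstitial list rose by 0.69, and of the mesonephric list Ret rose by 0.92 and Lhx1 fell by 0.56. Of the 6 leave-outs Ptch1 was called only without E13.5 replicate 1 (adjusted p 0.057 to 0.17 in the others), and Lhx1 gave 0.061 in the fit on 6 arrays. Hbb-y, an embryonic globin, averaged 7.13 at E13.5 and 8.73 at E12.5 without overlap and was not called. Its SD was 0.27 at each stage, while the SE of the fit was 0.76.

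E13.5 replicate 1 lay nearer to the E12.5 arrays than the other two. Among the clusters that rose it was the lowest of the 3 E13.5 arrays in 364 of 616 (59.1%), and among those that fell the highest in 313 of 494 (63.4%). Its median difference from the E12.5 mean was 0.52 for the rising clusters, against 0.65 and 0.70 in replicates 2 and 3, and −0.52 for the falling ones, against −0.68 and −0.72. It also had the highest mean of the 3 for the Sertoli, interstitial, Leydig, endothelial, red blood cell and mesonephric lists. The part of staging or of other cells in this was not tested. Replicates correlated at 0.983 to 0.989 within E13.5 and 0.991 to 0.993 within E12.5 over the members, and no pair of arrays in the table correlated above 0.994.

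At an adjusted p under 0.05 (limma, Benjamini-Hochberg over all 16820 clusters), 616 clusters were higher at E13.5 (4.05% of the members) and 494 were lower (3.25%). By gene, with each gene given by its brightest cluster, 587 of 13845 rose (4.24%) and 466 fell (3.37%). The median difference was 0.62 among the rising clusters and −0.64 among the falling ones, and 96 rose and 65 fell by over 2-fold. The median over all members was 0.01, which the quantile normalisation of the deposited values sets near 0, so a general shift could not be seen. With each array centred on its median the counts were 548 and 577. Of the rising clusters, 560 reached the limit at both stages and 56 at E13.5 only, and of the falling ones 453 at both stages and 41 at E12.5 only. Without E13.5 replicate 1 the counts were 590 and 517, of which 507 and 431 were among those called with it. They were 420 and 317 without E13.5 replicate 2, 387 and 288 without E13.5 replicate 3, and 411 and 320 without E12.5 replicate 1.

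**Figure D1:**
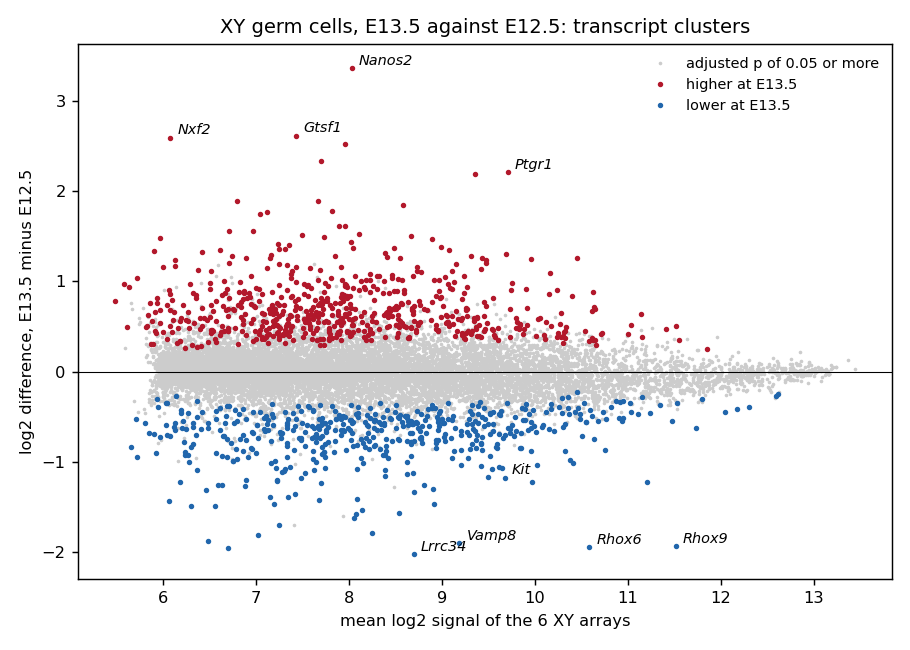
Log2 difference of each member cluster between E13.5 and E12.5 XY germ cells (vertical axis, log2) against its mean log2 signal over the 6 arrays (horizontal axis). Each point is a cluster, red where it was higher and blue where it was lower at an adjusted p under 0.05, and Nanos2 stands highest at 3.36.

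Nanos2, which holds XY germ cells on the male path and out of meiosis, had the largest difference of any member. Its log2 signal was 9.47, 9.97 and 9.69 at E13.5, against 6.25, 6.77 and 6.02 at E12.5. All E13.5 arrays lay above all E12.5 arrays, and the difference was 3.36 ± 0.12 (SE), or 10.3-fold (adjusted p = 1.8e-29). XX germ cells averaged 5.78 at E13.5 and 5.83 at E12.5, and E11.5 XY germ cells 5.84, all under the limit of 6.

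Cdkn1b encodes p27, an inhibitor of the cyclin E and CDK2 kinase. Its brightest cluster read 9.26, 9.21 and 9.40 at E13.5, against 8.33, 8.87 and 7.31 at E12.5. The groups did not overlap, but E12.5 replicate 3 lay far below the other E12.5 arrays, and the difference was 1.12 ± 0.31 (SE, adjusted p = 0.017). The call was lost without E13.5 replicate 3 (adjusted p = 0.078) and without E12.5 replicate 3 (0.32), and in the fits on 6 or 18 arrays (0.095 and 0.09). A second cluster of the gene gave 0.83 (adjusted p = 6.6e-06).

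**Figure D2:**
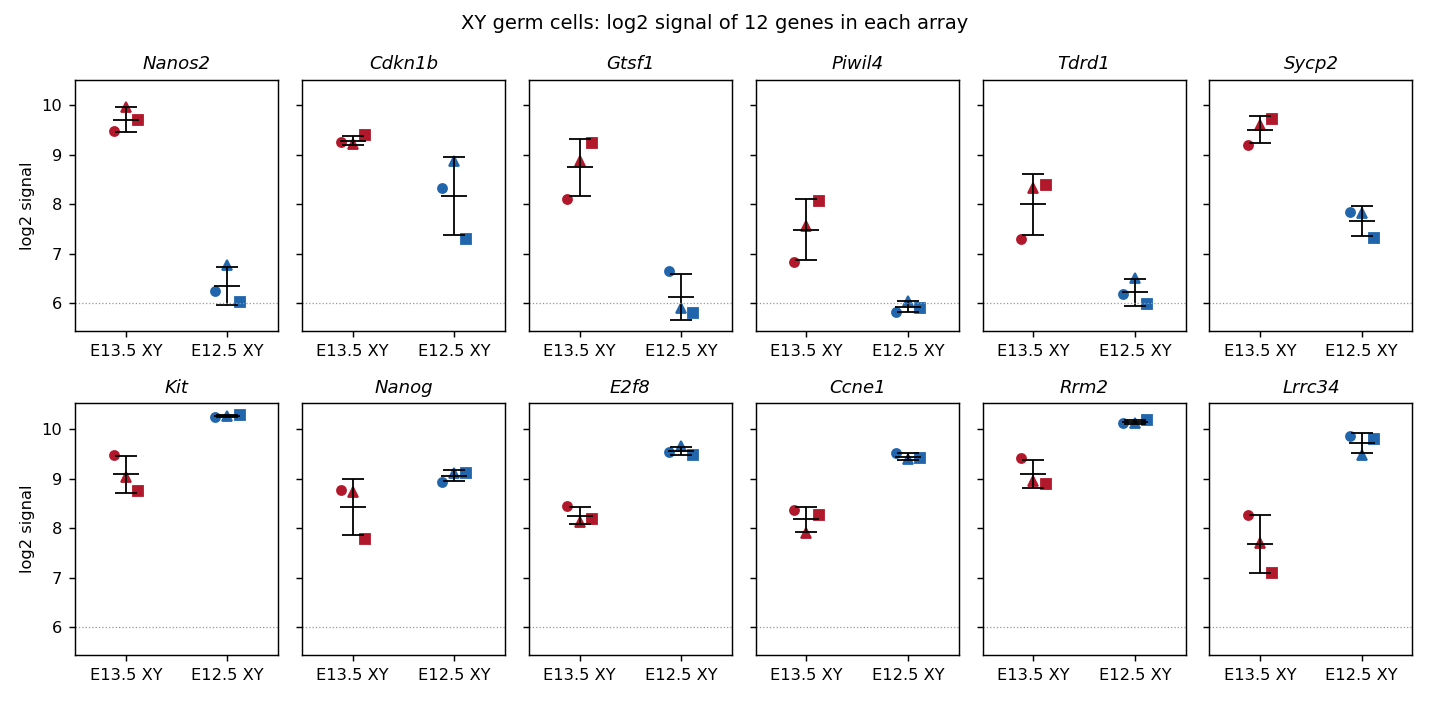
Log2 signal (vertical axis) of 12 genes in each of the 3 E13.5 and 3 E12.5 XY germ cell arrays, with circles, triangles and squares for replicates 1, 2 and 3, the mean as a bar and the SD as whiskers. The dotted line marks the limit of 6, and in each panel the E13.5 arrays lie wholly above or wholly below those of E12.5.

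Among the other leading risers, Gtsf1, a partner of PIWI proteins, read 8.12, 8.88 and 9.24 at E13.5, against 6.65, 5.91 and 5.82 at E12.5. Its difference was 2.62 ± 0.19 (adjusted p = 2.1e-15), and E13.5 replicate 1 was the lowest of its group. As 2 of its E12.5 arrays lay under 6, it is a member through E13.5 alone and its difference rests on a dim baseline. Nxf2, an X-linked relative of the nuclear mRNA export factor, read 6.35, 7.39 and 8.40, against 4.78, 4.78 and 4.80. As all its E12.5 arrays lay under 6, the difference of 2.59 rests on a dim baseline. Taf7l, an X-linked germ cell form of a TFIID subunit, read 8.65, 9.34 and 9.69, against 6.59, 6.84 and 6.68. Ptgr1, a prostaglandin reductase, read 10.49, 10.96 and 10.98, against 8.65, 8.66 and 8.50. Neither gene overlapped between the stages, with differences of 2.52 and 2.21. Bnc2, a zinc finger protein of germ cells, read 10.34, 10.44 and 10.58, against 8.29, 8.25 and 8.26, a difference of 2.19 ± 0.21. Gm1141 (2.34), Cbr3, a carbonyl reductase (1.89), Dcaf8l (1.89) and Sycp2, of the synaptonemal complex (1.84), completed the 10 largest rises. Dcaf8l read 6.67, 5.67 and 5.22 at E12.5, so it too is a member through E13.5 alone and rests on a dim baseline. The adjusted p of these 10 ran between 6.3e-08 for Dcaf8l and the value given for Nanos2.

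Lrrc34 led the genes that fell, with 8.27, 7.69 and 7.09 at E13.5, against 9.85, 9.48 and 9.81 at E12.5, a difference of −2.03 ± 0.26 (adjusted p = 6.3e-08). Rhox6 and Rhox9 are X-linked homeobox genes of one cluster. Rhox6 read 10.12, 9.41 and 9.29, against 11.51, 11.58 and 11.59, and Rhox9 read 11.35, 10.07 and 10.20, against 12.42, 12.38 and 12.64. Both were lower at E13.5 without overlap, by 3.86-fold and 3.84-fold, and the array nearest to E12.5 was in both cases replicate 1. Vamp8, a SNARE of vesicle fusion, fell by 1.91 on the log2 scale, Eid3 by 1.95, 1700019D03Rik by 1.81 and Cds1, a CDP-diacylglycerol synthase, by 1.70. Efcab10 fell as well, with all its E13.5 arrays under 6, at 5.12 to 5.997, against 6.76 to 7.86 at E12.5. Eid3 and 1700019D03Rik reached 6 on 1 of 3 E13.5 arrays each, so the size of these 3 differences rests on a dim group. Gmfg fell by 1.80 in its brighter cluster, but its other cluster gave −0.06 (adjusted p = 0.92), so the gene is uncertain. Pfkp, the platelet-type phosphofructokinase of glycolysis, read 7.39, 7.17 and 7.16, against 8.95, 8.82 and 8.82, and fell by 1.62 ± 0.21. E11.5 XY germ cells, which share no arrays with either stage, averaged 11.24 for Lrrc34, 12.60 for Rhox6 and 9.70 for Pfkp.

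**Figure D3:**
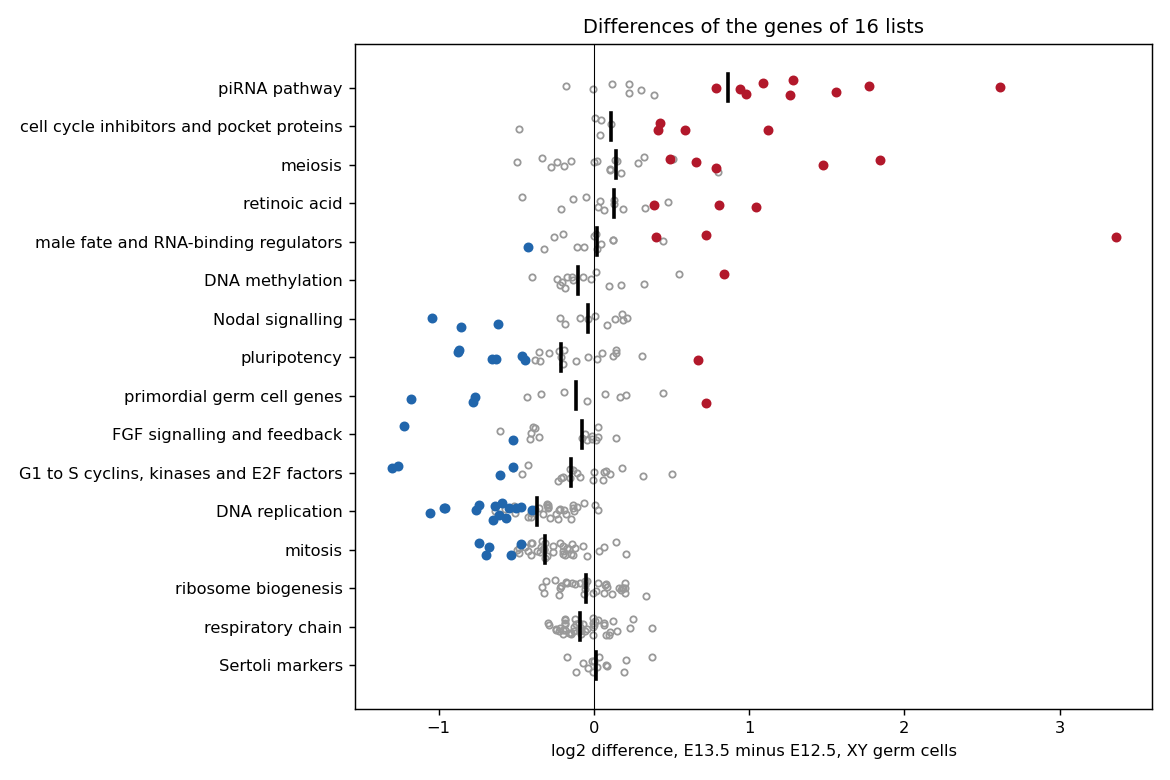
Log2 difference between E13.5 and E12.5 XY germ cells (horizontal axis) of each gene of 16 lists. Points are genes, filled in red (higher) or blue (lower) where the adjusted p was under 0.05, and the black bar is the median, which is 0.86 for the piRNA pathway and −0.36 for DNA replication.

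The piRNA pathway had the largest share of rising genes of the lists examined. Of 16 members 9 rose and none fell (56.2%, against 4.24% of all genes), with a median difference of 0.86, against 0.01 over all genes. Piwil4 and Gtsf1 reached 6 on 1 of 3 E12.5 arrays and so are members through E13.5 alone, and of the 14 that reached it at both stages 7 rose. Piwil4, the nuclear PIWI protein MIWI2, read 6.84, 7.57 and 8.07 at E13.5, against 5.83, 6.05 and 5.91 at E12.5, a difference of 1.56 ± 0.12 (adjusted p = 2.4e-14). Tdrd1, a tudor scaffold protein, read 7.30, 8.33 and 8.38, against 6.19, 6.52 and 5.98, a difference of 1.77. E13.5 replicate 1 was the lowest for Gtsf1, Piwil4 and Tdrd1 but still above every E12.5 array. Exd1 rose by 1.28, Tdrd5 by 1.26, Mael by 1.09, Mov10l1, the piRNA helicase, by 0.98, Tdrd7 by 0.94 and Tdrd9 by 0.78. Piwil2, the cytoplasmic PIWI protein MILI, read 8.07, 8.90 and 8.86, against 8.05, 8.52 and 8.09, and its difference of 0.39 did not pass (adjusted p = 0.12). Prmt5 (−0.18), Pld6, Tdrkh, Tdrd12, Tex19.1 and Asz1 did not pass either. The count was 9 or 10 whichever array was left out. The XY change was above that in XX germ cells for 6 of the 16, against 312 of all 13845 genes.

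The E-box CACGTG stood in the promoters of 4 of the 9 piRNA genes that rose, which are shown with it in capitals.
Tdrd1, chr19:56826186-56826215, plus strand: tggggctgcgcgCACGTGggagtaaactgc
Mael, chr1:166238950-166238979, minus strand: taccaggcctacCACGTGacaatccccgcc
Tdrd9, chr12:111971452-111971481, plus strand: gcacgaggctccCACGTGcatgcagggcct
Mov10l1, chr15:88982744-88982773, plus strand: ccttCACGTGctaaccgccaacctctcgtg
This motif was searched after the values were seen. It stood in 5 of the 15 promoters of the whole piRNA list. The motif was in 82 of 481 promoters of rising genes, 8.85% of those of falling genes, 11.3% of those of the members and 8.09% of all promoters.

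Of 16 male fate and RNA-binding regulators 3 rose, Nanos2 among them (18.8%, against 4.24% of all genes), and 1 fell (6.25%, against 3.37%). Nanos3, which keeps primordial germ cells alive, read 9.37, 9.39 and 9.37 at E13.5, against 8.72, 8.80 and 8.44 at E12.5, and rose by 0.72 (adjusted p = 0.011). Igf2bp3, an mRNA-binding protein, rose by 0.40 and Nanos1 fell by 0.42. Dnd1, the partner of NANOS2, gave 0.44 (adjusted p = 0.12), and Dazl −0.06. Nanos3 was not called without E12.5 replicate 3 (adjusted p = 0.1). Igf2bp3 was not called without replicate 1 or 3 of either stage (0.088 to 0.1), nor Nanos1 without E13.5 replicate 2 or 3 or E12.5 replicate 1 or 2 (0.076 to 0.21).

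Of 9 cell cycle inhibitors and pocket proteins, Cdkn1b among them, 4 rose and none fell (44.4%, against 4.24% of all genes). Rb1, the retinoblastoma protein that binds E2F factors, read 9.96, 10.08 and 10.24 at E13.5, against 9.53, 9.62 and 9.36 at E12.5, a difference of 0.59 (adjusted p = 0.033). Cdkn2a, which encodes p16 and p19Arf, read 7.29, 7.59 and 7.63, against 7.14, 7.01 and 7.12, a difference of 0.42 (0.0015). Cdkn1c, or p57, also gave 0.42, and Cdkn2b, or p15, gave 0.11 (0.63). Rbl1, which encodes the pocket protein p107, gave −0.48 without passing (adjusted p = 0.1). The list was sensitive to single arrays, with 1 member called without E13.5 replicate 3 or without E12.5 replicate 3 and 2 without E12.5 replicate 1. Rb1 was not called without E13.5 replicate 2 or 3 or E12.5 replicate 1 or 3 (adjusted p 0.082 to 0.19), nor Cdkn1c without replicate 1 or 3 of either stage (0.057 to 0.24), and Cdkn2a gave 0.061 and 0.055 in the fits on 6 and on 18 arrays. In none of the 9 did the change differ from that in XX germ cells at the limit.

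Of 24 cyclins, kinases and E2F factors of the passage from G1 to S, 4 fell and none rose (16.7% lower, against 3.37% of all genes). E2f8, a repressor that is itself an E2F target, read 8.45, 8.13 and 8.18 at E13.5, against 9.54, 9.65 and 9.48 at E12.5, a difference of −1.30 ± 0.17 (adjusted p = 7.4e-08). Ccne1, or cyclin E1, which drives entry to S phase, read 8.37, 7.90 and 8.26, against 9.52, 9.39 and 9.41, a difference of −1.26 (8.3e-07). Neither gene overlapped between the stages. E2f7 fell by 0.61, and Cdc25a, the phosphatase that activates CDK2, by 0.52. Ccnd1 gave 0.06, Ccnd2 0.08, Ccnd3 −0.21 and Cdk4 0.00, none of which passed. In 3 of the 24 the change was lower in XY than in XX germ cells and in 1 higher, against 202 and 312 of all 13845 genes. Cdc25a was called only with every array present or without E13.5 replicate 1, with adjusted p of 0.067 to 0.21 without any other.

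Of 44 replication members 14 fell and none rose (31.8%, against 3.37% of all genes), 42 of the 44 differences were negative, and the median was −0.36. Rrm2, the small subunit of ribonucleotide reductase, read 9.40, 8.96 and 8.90 at E13.5, against 10.12, 10.12 and 10.18 at E12.5, a difference of −1.05 ± 0.17 (adjusted p = 6.1e-06). Cdc6, which loads the MCM helicase and whose promoter stretch is shown above, read 8.10, 7.30 and 7.55, against 8.53, 8.72 and 8.59, a difference of −0.96 (0.00018). Gmnn, or geminin, which blocks that loading, read 9.13, 8.76 and 8.52, against 9.85, 9.80 and 9.64, also −0.96. In all 3 genes E13.5 replicate 1 was the highest of its group. Orc1 fell by 0.76, Pole2 by 0.74, Mcm4 by 0.65, Cdc45 by 0.64, Rrm1 by 0.61, Mcm3 by 0.59, Rfc3 by 0.56, Fen1 by 0.54, Tyms by 0.50, Rpa1 by 0.47 and Pcna, the polymerase clamp, by 0.40. Mcm2 gave −0.30 (adjusted p = 0.32) and Pole 0.01. In XX germ cells the difference was −0.35 for Rrm2, −0.38 for Cdc6, −0.16 for Gmnn, 0.02 for Orc1 and 0.03 for Pole2. The change was lower in XY than in XX germ cells at the limit in 1 of the 44, Gmnn, and higher in none. Of all 13845 genes, it was lower in 202 and higher in 312. The number called was 7 without E13.5 replicate 2 or 3, 9 without E12.5 replicate 1 or 2, and 11 or 12 without the others. Orc1 gave an adjusted p of 0.076 without E13.5 replicate 2, and Pcna 0.054 to 0.13 without E13.5 replicate 2 or 3 or E12.5 replicate 1 or 2.

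Of 42 mitosis members 5 fell and none rose (11.9%, against 3.37% of all genes), with 38 negative differences and a median of −0.31. Cenpa, the centromeric histone, read 9.57, 9.28 and 9.02 at E13.5, against 10.13, 10.10 and 9.86 at E12.5, a difference of −0.74 (adjusted p = 0.00082). Incenp of the chromosomal passenger complex fell by 0.68, Mybl2, or B-Myb, by 0.69, Cdc25c by 0.53 and Mki67 by 0.47. Cdk1 read 10.23, 9.86 and 9.99, against 10.37, 10.33 and 10.49, and its difference of −0.37 did not pass (adjusted p = 0.35). Ccnb2 (0.03) and Cenpf (0.06) were at like levels. In XX germ cells the difference was −0.45 for Cenpa, −0.52 for Incenp, −0.74 for Mybl2, −0.83 for Cdc25c and −0.21 for Mki67. In none of the 42 did the change differ from that in XX germ cells at the limit, which does not show that the changes were equal. The count was 3 without E13.5 replicate 2 or 3 or E12.5 replicate 1 or 2. Mybl2 was not called without E13.5 replicate 1 (0.13) or E12.5 replicate 3 (0.068), nor Cdc25c without E13.5 replicate 2 or 3 or E12.5 replicate 1 or 2 (0.068 to 0.17).

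The pluripotency genes fell in part. Of 23 members 6 fell (26.1%, against 3.37% of all genes) and 1 rose (4.35%, against 4.24%). Nanog read 8.77, 8.73 and 7.78 at E13.5, against 8.93, 9.11 and 9.12 at E12.5, a difference of −0.63 (adjusted p = 0.0025). Sox2 read 8.73, 8.60 and 8.57, against 9.41, 9.13 and 9.32, a difference of −0.65 (0.015). L1td1, an RNA-binding protein of embryonic stem cells, fell by 0.88, and Zfp42 and Klf5 by 0.46 and 0.45. Dppa2 fell by 0.87 in its brighter cluster and gave −0.16 in another that did not pass. Pou5f1, whose promoter drove the sorting reporter, read 10.64, 10.82 and 10.82, against 10.65, 10.70 and 10.77, a difference of 0.05 (adjusted p = 0.99), and Stat3 rose by 0.67. The decrease in Nanog rests on E13.5 replicate 3, without which the adjusted p was 0.25. The number lower was 2 without that array and 3 without E13.5 replicate 2 or E12.5 replicate 1, and Sox2 gave 0.058 to 0.087 without any one of these or E12.5 replicate 3. In the fit on 6 arrays Nanog gave 0.19 and L1td1 0.063. The difference in XX germ cells was −1.39 for Nanog, −1.20 for Sox2, −1.92 for L1td1, −0.76 for Pou5f1 and 0.49 for Stat3. In 5 of the 23 the change was higher in XY than in XX germ cells and in none lower, against 312 and 202 of all 13845 genes. The decrease is therefore not particular to XY cells.

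Of 12 primordial germ cell genes 3 fell (25%, against 3.37% of all genes) and 1, Nanos3, rose (8.33%, against 4.24%). Kit, the receptor for the survival and growth signal KIT ligand, read 9.47, 9.03 and 8.75 at E13.5, against 10.24, 10.26 and 10.29 at E12.5, a difference of −1.18 ± 0.19 (adjusted p = 7.1e-06). Prdm14, a regulator of germ cell specification, read 7.48, 7.29 and 7.38, against 8.06, 8.23 and 8.21, a difference of −0.78 (1.1e-05). Tfap2c fell by 0.77 and Dppa3 gave 0.07. In XX germ cells the difference was −0.64 for Kit, −0.94 for Prdm14 and −0.90 for Tfap2c, and −1.10 for Nanos3. For the 3 genes that fell, the difference from XX did not pass the limit. Tfap2c was not called without E13.5 replicate 2 or 3 or E12.5 replicate 1 or 2 (adjusted p 0.063 to 0.14).

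Nodal signalling, which is known to be active for a short time in XY germ cells, showed 3 lower of 13 members (23.1%, against 3.37% of all genes) and none higher. Tdgf1, the co-receptor Cripto, read 9.60, 9.91 and 8.98 at E13.5, against 10.71, 10.27 and 10.63 at E12.5, a difference of −1.04 (adjusted p = 0.0017). Foxh1, the transcription factor that works with SMAD2, fell by 0.86 (8e-07), and Lefty2, a target and inhibitor, by 0.61. Nodal itself read 7.30 on each E13.5 array, against 7.30, 7.33 and 7.25. Tdgf1 was not called without E13.5 replicate 3 (0.066), nor Lefty2 without E13.5 replicate 2 (0.25) or E12.5 replicate 1 (0.47). The stages overlapped for Lefty2. In XX germ cells the difference was −1.28 for Tdgf1, −0.47 for Foxh1 and −0.38 for Lefty2, the last with means under 6 at both stages. In none of the 13 did the change differ from that in XX germ cells at the limit, which does not show that the changes were equal. Of the FGF list 2 of 17 fell (11.8%, against 3.37% of all genes), Etv1 by 1.22 and Etv4 by 0.52, both ETS factors that respond to ERK. Spry4 (−0.41) and Fgfr1 (−0.35) did not pass. Etv1 and Etv4 gave −0.80 and −0.46 in XX germ cells, and for neither did the difference from XX pass the limit. Of the BMP list, Id3 alone fell of 17 (5.88%, against 3.37% of all genes), by 0.82. It was not called without E13.5 replicate 3 or E12.5 replicate 2 (0.13 each).

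Meiotic genes separated into a few that rose in XY cells and the rest, which did not pass. Of 22 members 5 rose (22.7%, against 4.24% of all genes) and none fell. Sycp2 read 9.19, 9.61 and 9.71 at E13.5, against 7.85, 7.82 and 7.32 at E12.5, a difference of 1.84 ± 0.18 (adjusted p = 7.9e-11). Sycp1, of the synaptonemal complex as well, read 9.29, 9.79 and 9.81, against 7.98, 8.52 and 7.97, a difference of 1.48 (2e-05). Hormad2 rose by 0.79, Hspa2 by 0.66 and Msh4 by 0.49. Rec8, the meiotic cohesin, read 6.49, 6.63 and 6.57, against 6.13, 6.35 and 6.36, a difference of 0.28 that did not pass (adjusted p = 0.35). Stra8, the switch for meiotic entry, lay under 6 on all 6 XY arrays, at 5.39 to 5.59 and 5.27 to 5.43, and so was no member, while XX germ cells averaged 10.35 and 7.59. In 9 of the 22 the change was smaller in XY than in XX cells and in none larger, against 202 and 312 of all 13845 genes. The count was 3 without E13.5 replicate 2 or 3. Hormad2 was not called without E13.5 replicate 2 or 3 or any E12.5 array (adjusted p 0.076 to 0.34), nor under several other settings, and Hspa2 not without E13.5 replicate 1 (0.072).

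Of the retinoic acid list 3 of 15 rose (20%, against 4.24% of all genes) and none fell. Crabp2, a binding protein that carries retinoic acid to its receptors, read 9.52, 9.48 and 9.68 at E13.5, against 8.67, 8.58 and 8.31 at E12.5, a difference of 1.04 (adjusted p = 0.0053). Aldh1a2, which makes retinoic acid, read 8.06, 7.72 and 7.80, against 7.10, 7.08 and 6.98, a difference of 0.81 (0.03), and the receptor Rara rose by 0.39 (0.046). Aldh1a2 was not called with any array left out (0.052 to 0.13), nor Rara with any but E12.5 replicate 3 left out (0.098 to 0.24). Rarb, a target of retinoic acid, gave 0.06.

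Among chromatin genes, Tet2, an enzyme that oxidises methylcytosine, was the 1 gene of 16 in the DNA methylation list that passed (6.25%, against 4.24% of all genes). It read 7.74, 8.07 and 8.13 at E13.5, against 6.95, 7.20 and 7.27 at E12.5, a difference of 0.84 (adjusted p = 0.0018). Dnmt3a, a de novo methyltransferase, gave 0.55 (0.055) and Dnmt1 −0.22. Of 25 Polycomb genes 3 fell (12%, against 3.37% of all genes), Ezh2 by 0.55, Pcgf5 by 0.53 and Suz12 by 0.32, and 2 rose (8%, against 4.24%), Kdm6b, an H3K27 demethylase, by 0.65 and Ezh1 by 0.44. None of the 3 decreases was called without E13.5 replicate 2 or without E13.5 replicate 3, Ezh2 was not called without E12.5 replicate 2 (0.072) or 3 (0.12) either, and Ezh1 gave 0.053 without E13.5 replicate 2. Of 22 imprinted genes 3 fell (13.6%, against 3.37% of all genes), Slc38a4 by 1.14, Peg3 by 0.66 and Phlda2 by 0.57, and 2 rose (9.09%, against 4.24%), Peg10 by 0.66 and Cdkn1c. Phlda2 gave an adjusted p of 0.11 in the fit on 18 arrays. Peg10 was not called without E13.5 replicate 2 or 3 or E12.5 replicate 1 or 2 (0.063 to 0.25).

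None of 34 ribosome biogenesis genes and none of 46 respiratory chain genes passed in either direction, with medians of −0.05 and −0.09. Of 14 glycolysis genes 3 fell (21.4%, against 3.37% of all genes), Pfkp, Pgk1 (−0.56) and Pfkl (−0.42), and Ldha gave 0.01. Pgk1 was not called without E13.5 replicate 2 (adjusted p = 0.09). Pfkl was not called without E13.5 replicate 2 or 3 or any E12.5 array (0.1 to 0.3), with trended robust variance (0.053) or with no filter on dim clusters (0.056). Of the 18 adhesion genes Pecam1, which read 9.51, 8.89 and 8.95 at E13.5, against 10.19, 10.31 and 10.06 at E12.5, fell by 1.07 and Cldn7 by 0.60 (2 of 18, 11.1%, against 3.37% of all genes). Pmaip1, the BH3-only protein NOXA, was the 1 of 16 survival and death genes that passed, with a rise of 0.84 (6.25%, against 4.24% of all genes), and gave 0.051 in the fit on 6 arrays. Of 14 immediate early and stress genes Ier3 rose (7.14%, against 4.24% of all genes), by 0.71. It was not called without E13.5 replicate 2 or 3 or E12.5 replicate 1 or 2 (0.051 to 0.22). Fos and Jun gave 0.07 and 0.19.

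The change from E12.5 to E13.5 was then compared between XY and XX germ cells by the interaction term of the same fit. It was higher in XY for 324 clusters (2.13% of members) and lower for 207 (1.36%). Of the 324, 162 rose in XY cells, 9 fell in them and 153 passed in neither direction there. Of the 207, 49 fell, 10 rose and 148 passed in neither. For the remaining 444 rising and 436 falling clusters the difference from XX did not pass the limit, which does not show that the changes were equal. Without E13.5 XX replicate 3 the counts were 218 and 117.

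Nanos2 led the first group, with an XY change above the XX change by 3.42 ± 0.17 (SE). Gtsf1l, a relative of Gtsf1, averaged 8.63 at E13.5, against 7.63 at E12.5, in XY cells, while XX cells averaged 6.21 and 7.98, a difference between the changes of 2.77 (adjusted p = 1.7e-15). Morc1, an ATPase for transposon silencing in male germ cells, averaged 8.77 and 7.16 in XY cells and 6.21 and 7.03 in XX cells, a difference of 2.44. Uchl1, a deubiquitinase, averaged 10.07 and 8.87 in XY cells and 7.74 and 8.85 in XX cells, a difference of 2.32. These 3 genes rose in XY cells and had lower means at E13.5 than at E12.5 in XX cells. Ptgr1 was higher by 2.23 and had XX means of 8.69 and 8.70.

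M1ap, a gene of meiosis I, averaged 6.21 at E13.5, against 6.49 at E12.5, in XY cells and 10.22 and 7.98 in XX cells, a difference of −2.53 (adjusted p = 4.6e-15). Prdm9, which places meiotic recombination sites, changed by 0.11 in XY cells (adjusted p = 0.91) and averaged 9.18 and 6.77 in XX cells, a difference between the changes of −2.30. Rhox13 gave −2.48, Ugt8a −2.43 and Tex101 −1.90. Of these 5 genes Tex101 rose in XY cells, by 1.06, and Ugt8a fell, by 0.74 and not without E13.5 replicate 3 (adjusted p = 0.2) or E12.5 replicate 1 (0.08).

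**Figure D4:**
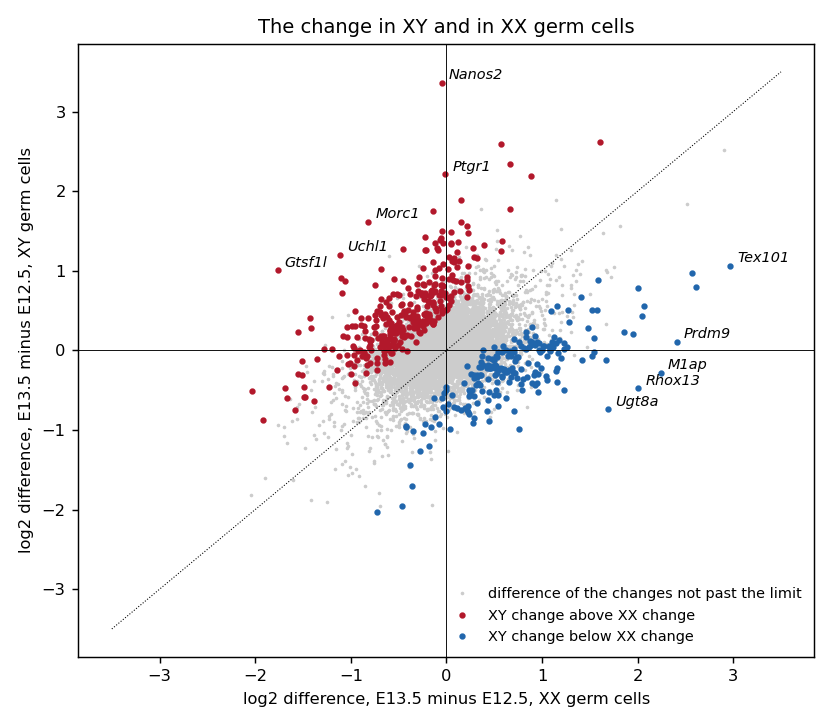
Log2 difference between E13.5 and E12.5 in XY germ cells (vertical axis) against that in XX germ cells (horizontal axis) for each member cluster, with the dotted line where they are equal. Red points changed more upwards in XY and blue points less, at an adjusted p under 0.05 of the interaction, with Nanos2 at 3.36 in XY and near 0 in XX.

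The called clusters were set beside the XY somatic arrays. Of the rising clusters 303 of 616 (49.2%) lay on all 3 E13.5 arrays above all 9 arrays of XY supporting, interstitial and endothelial cells of that stage, against 21.2% of the members. Of the falling clusters 239 of 494 (48.4%) did so at E12.5, against 20.7% of the members. Both shares are taken at the stage where the clusters were chosen for being high, so nothing is read from them. At the other stage, 143 of the rising clusters (23.2%) were above the somatic arrays at E12.5 and 122 of the falling ones (24.7%) at E13.5, near the shares of the members.

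By chromosome, 46 of 469 X-linked clusters rose (9.81%) and 26 fell (5.54%), against 2.35% to 5.46% and 2.14% to 4.31% on the 19 autosomes. Of the 9 Y-linked clusters 3 rose (33.3%), all of Uba1y, and 2 of these 3 held equal values. The X-linked risers were led by Nxf2, Taf7l, Gm1141 and Dcaf8l. At E13.5, 19 of the 46 lay above all XY somatic arrays. That count is taken at the stage where they were chosen for being high, so nothing is read from it. In 12 of the 46 the change was larger in XY than in XX germ cells and in 1, Tktl1, smaller. Of all 616 rising clusters it was larger in 162 and smaller in 10, so the X-linked count is near the general share. The shares by chromosome are a description, with no test, and neighbouring genes of a family such as Rhox are not independent.

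**Figure D5:**
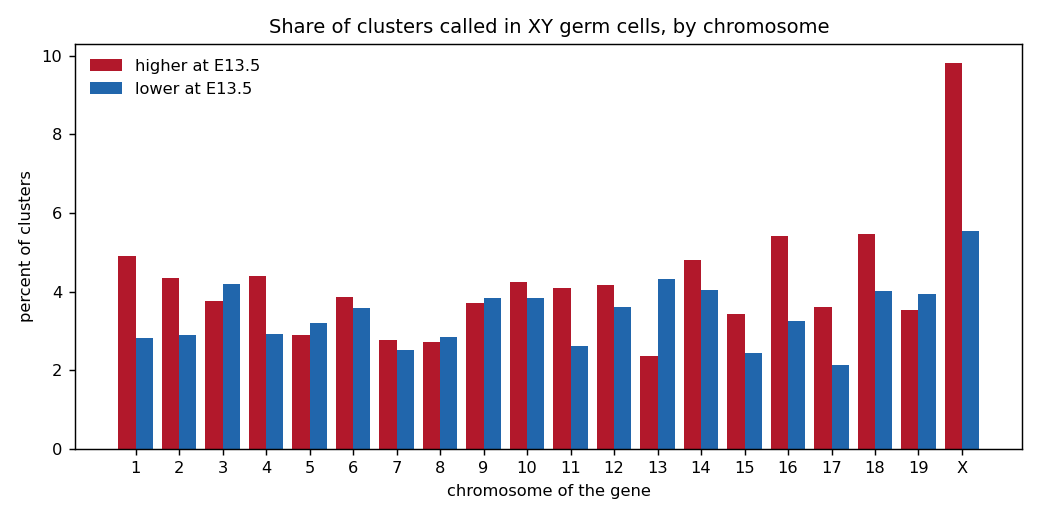
Percent of member clusters that were higher (red) or lower (blue) at E13.5 than at E12.5 in XY germ cells, by chromosome of the gene. Among the chromosomes drawn the X has the tallest bars of both kinds, 9.81% and 5.54%, and the Y, with 9 clusters, is not drawn.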

How the data were processed

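Per the labels and the study's methods, RNA was amplified with the Nugen WT-Ovation Pico kit and hybridised to Affymetrix Mouse Gene 1.0 ST arrays. Scanning by the authors used GCOS, and RMA in Partek gave the deposited log2 signals, quantile normalised, for 35557 transcript clusters. Which arrays were normalised together is not given in the sources used here. Array values carry no read depth, so precision rests on 3 arrays a group and on the spread pooled over all groups fitted.

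Clusters naming 1 gene (21789) and reaching log2 6 in 2 of 3 arrays of any of 24 groups (72 arrays, αSma-EYFP cells and newborn mouse left out) were fitted with limma 3.58.1 in R 4.3.3, as group means with 48 residual degrees of freedom, and Benjamini-Hochberg adjustment over 16820 clusters. A gene in several clusters was given by its brightest. Of the members, 96 had values equal to another cluster's, 6 of these called. The step was tested on simulated data.

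The named genes were Nanos2, Cdkn1b, the 10 largest called differences without overlap in each direction, the 5 largest in each direction against XX, and in each list the first 2 genes and up to 4 called members; a gene beyond these is named to complete a list. The members and lists were chosen with earlier results of these data known. Alternatives were other fits, normalisations, filters, limits and leaving out each array.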

Additional observations from a re-analysis of the deposited data

Results flagged for a closer look

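The change between E12.5 and E13.5 differed between XY and XX germ cells for 35 of the 134 named genes, 22 above and 13 below. This is by the interaction term of the limma fit, at an adjusted p under 0.05. The 5 leading genes in each direction were named by this same term, so their passing was set in advance and the count of 35 is no result. Of all member clusters 2.13% were above and 1.36% below. Stra8, which is named but is no member, is not among them (−2.64, adjusted p = 4.4e-14). The values are the XY change minus the XX change, on the log2 scale. The effect of other cell types on them was not tested.

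Above XX were Nanos2 (3.42), Gtsf1l (2.77), Morc1 (2.44), Uchl1 (2.32), Ptgr1 (2.23), Nxf2 (2.02), Nanos3 (1.82), Cbr3 (1.74) and Gm1141 (1.67). Of the piRNA genes, Piwil4 (1.34), Tdrd1 (1.10), Gtsf1 (1.01) and Exd1 (1.00) were above. Bnc2 (1.30), Peg10 (1.26), Cdh1 (1.26), Tet2 (1.15), Dnd1 (1.12), Pmaip1 (0.96) and Ret (0.70) were above as well. L1td1 (1.05) and Nanog (0.76) fell in XY cells, with lower means at E13.5 in XX cells by more. Of these, Nanos3 and Dnd1 averaged 9.38 and 7.71 at E13.5, against 8.65 and 7.26 at E12.5, in XY cells, and 7.81 and 6.88, against 8.90 and 7.56, in XX cells.

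Below XX were M1ap (−2.53), Rhox13 (−2.48), Ugt8a (−2.43), Prdm9 (−2.30), Tex101 (−1.90), Rhox6 (−1.49), Cds1 (−1.34), Lrrc34 (−1.31), Rec8 (−1.20), Ccne1 (−0.99), Ccnd1 (−0.95), Gmnn (−0.79) and Cldn7 (−0.46). Ccnd1, a D-type cyclin, averaged 7.88 and 7.82 in XY cells and 9.35 and 8.33 in XX cells.

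The calls of 16 of the 35 were lost under at least 1 alternative: Ccnd1, Ccne1, Cds1, Cldn7, Dnd1, Exd1, Gmnn, Gtsf1, L1td1, Lrrc34, Nanog, Nxf2, Peg10, Ret, Rhox13 and Tdrd1, with adjusted p up to 0.34 for Gtsf1.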

How the results depend on the processing

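No direction reversed under any alternative for the named genes that were called in either fit. Array weights raised the counts to 1153 higher and 1052 lower, and to 706 and 520 for the XY change above and below that of XX. A further limit of 1.5-fold lowered them to 345 and 290. At the study's own limits of unadjusted p and fold, the differences from XX numbered 583 and 452. Leaving out 1 array gave 387 to 590 higher and 288 to 517 lower, and 218 to 327 above and 117 to 246 below XX. Fits on 6 or 18 arrays, quantile normalisation again, median centring (548 higher, 577 lower), other filters, members-only adjustment, trended robust variance and counting by gene stayed within 1.5 times. Like totals did not mean the same clusters. The fit on 6 arrays shared 438 of the 616 rising and 364 of the 494 falling clusters. The fit on 12 arrays shared 221 of the 324 above and 113 of the 207 below XX. In the fit on 18 arrays Tfap2c gave an adjusted p of 0.22 and Tdgf1 0.088. Of 87 named genes called, 50 stayed called under every alternative run. Cdkn2a, L1td1, Lhx1, Phlda2 and Pmaip1 kept their call in each leave-out but not in a fit on 6 or on 18 arrays, and Etv4 (adjusted p = 0.066) and Stat3 (0.061) lost it under the replicate block alone.

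Same-numbered E13.5 and E12.5 XY arrays deviated together only weakly (correlations 0.09, 0.10 and 0.14), although each correlated best with its own number, so the numbers were not taken as pairs. Under the pairing, with a replicate block in the fits on 6 and 12 arrays the counts were 530 higher and 471 lower, and 365 above and 201 below XX. The 3 arrays a group and dim clusters under 6 limit small differences.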

Other observations

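Chd7, a chromatin remodelling helicase, is spread over 30 member clusters, of which 8 rose and none fell at E13.5 against E12.5, with log2 differences of 0.98 to 1.78 among the 8. Carnmt1, a carnosine methyltransferase, had 4 clusters and all 4 fell, with differences of −0.78 to −0.69. Of all member clusters 4.05% rose and 3.25% fell. Both genes were picked out after their values were seen, by having 3 or more called clusters, and clusters of 1 gene are not independent. Pgk1, with 3 clusters lower, and Uba1y, with 3 higher, met the same rule and are named above.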
